A study of Mus musculus with 3 samples.

Results

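Broad open regions of mouse monocyte chromatin are described here: stretches of 500 bp or more that DNase-seq marked as open in each of 3 libraries. Peaks of each library's longer deposited list were merged across gaps of up to 50 bp, and autosomal intervals of at least 500 bp were kept when they overlapped such an interval in both other libraries. This left 319 intervals in replicate 1, 318 in replicate 2 and 319 in replicate 4, of 50932, 40213 and 46471 merged autosomal intervals. Joined over the libraries they form 318 regions. The cells were primary monocytes, the blood-borne precursors of many macrophages, from female adult B6CASTF1/J mice, the first-generation offspring of C57BL/6J and CAST/EiJ, at 2 months. The labels give no treatment, form 1 group and tie the libraries to 1 donor identifier, so every error below is the spread (SD) between 3 libraries, which may be technical. The members were selected on their measured width and its recurrence, so both are given as a description.

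In DNase-seq the nuclease DNase I cuts where nucleosomes are absent or displaced, and a peak marks such a stretch. A typical site leaves room for about the length of DNA that 1 nucleosome would cover. Promoters rich in CpG dinucleotides (CpG islands) tend to stay free of nucleosomes over a longer stretch, and clusters of bound factors or of start sites can do the same. Short dips of cutting inside a peak, called footprints, can mark DNA shielded by a bound protein. The comparison class, called narrow here, holds single peaks of 150 to 250 bp that overlap such a peak in both other libraries, with 12626, 12625 and 12624 intervals. Peak height is the authors' signal value, whose scale is not stated. The number of sequenced reads behind it was not analysed here, so the depth is unknown.

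The labelled cell type was checked on marker promoters. Of 14 autosomal monocyte markers 10 had a promoter peak in all 3 libraries, against 1 of 7 for T cells, 0 of 5 for B cells, 0 of 4 for natural killer cells, 2 of 6 for neutrophils and 2 of 4 for dendritic cells. The counts were 1 of 3 for megakaryocytes, 0 of 2 for erythroid cells, 0 of 3 for mast cells and basophils and 0 of 3 outside blood. Over all autosomal protein-coding genes it was 10726 of 20720, and lists this short do not establish the cell type. No promoter of these lists held a broad interval. The libraries had 52701, 41558 and 47789 autosomal peaks and 140947, 105510 and 117030 footprints.

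The sequences below show how differently broad regions are filled with footprints. Each is the plus strand of GRCm38 (mm10), 5′ to 3′, in a stretch of up to 300 bp outside all annotated exons, picked where most bases lay under footprints. Capitals mark bases under a footprint in all 3 libraries. The tallest broad promoter, of Rab8a, a small GTPase of vesicle transport, is shown at chr8:72160856-72161155, with 74 such bases in 5 stretches. The stretch with the most such bases of any region, 113 in 7 stretches, lies upstream of Vkorc1l1, an enzyme of the vitamin K cycle, at chr5:129941622-129941921. The tallest broad region away from coding start sites is shown at chr7:73618242-73618541, with 105 such bases in 5 stretches; its nearest coding gene is Chd2, a chromatin remodeller.
Rab8a promoter: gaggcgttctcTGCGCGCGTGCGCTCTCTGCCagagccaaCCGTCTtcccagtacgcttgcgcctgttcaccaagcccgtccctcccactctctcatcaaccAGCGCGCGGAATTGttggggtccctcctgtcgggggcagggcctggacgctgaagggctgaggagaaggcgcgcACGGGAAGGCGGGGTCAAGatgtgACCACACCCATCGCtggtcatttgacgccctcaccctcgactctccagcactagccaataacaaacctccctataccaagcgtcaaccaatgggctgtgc
Vkorc1l1 promoter: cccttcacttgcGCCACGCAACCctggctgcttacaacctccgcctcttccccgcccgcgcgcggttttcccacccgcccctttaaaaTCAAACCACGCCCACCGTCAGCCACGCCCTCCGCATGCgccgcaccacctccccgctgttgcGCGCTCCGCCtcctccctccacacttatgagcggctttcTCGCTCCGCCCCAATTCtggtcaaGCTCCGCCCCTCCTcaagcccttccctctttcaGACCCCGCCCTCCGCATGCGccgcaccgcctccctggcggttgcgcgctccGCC
Chd2 distal: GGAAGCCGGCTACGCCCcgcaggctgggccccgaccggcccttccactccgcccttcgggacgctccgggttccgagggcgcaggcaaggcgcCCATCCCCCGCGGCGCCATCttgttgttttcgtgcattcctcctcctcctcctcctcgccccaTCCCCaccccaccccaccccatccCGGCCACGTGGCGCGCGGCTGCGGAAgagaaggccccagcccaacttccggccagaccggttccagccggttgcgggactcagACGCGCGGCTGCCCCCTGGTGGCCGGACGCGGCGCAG
The next pair comes from broad promoter regions where footprints were absent in all libraries (Rev3l) or few in replicate 1 (Cdk6). A broad region at Rev3l, the catalytic subunit of DNA polymerase zeta, is shown at chr10:39732614-39732913 and has 0 capital bases. Another broad region at Rev3l, not shown, had 85 bases under footprints of all 3 libraries. The region with the longest single interval, at Cdk6, a cell cycle kinase, is shown at chr5:3341161-3341460 and has 0 capital bases. That region held 1, 5 and 8 footprints in replicates 1, 2 and 4, and a capital needs all 3 libraries.
Rev3l promoter: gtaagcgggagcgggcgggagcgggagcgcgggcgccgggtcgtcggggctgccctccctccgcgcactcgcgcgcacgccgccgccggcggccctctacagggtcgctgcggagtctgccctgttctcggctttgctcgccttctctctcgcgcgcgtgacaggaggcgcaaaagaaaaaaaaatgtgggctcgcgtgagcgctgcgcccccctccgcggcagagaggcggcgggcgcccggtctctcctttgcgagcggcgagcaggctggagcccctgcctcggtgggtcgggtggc
Cdk6 promoter: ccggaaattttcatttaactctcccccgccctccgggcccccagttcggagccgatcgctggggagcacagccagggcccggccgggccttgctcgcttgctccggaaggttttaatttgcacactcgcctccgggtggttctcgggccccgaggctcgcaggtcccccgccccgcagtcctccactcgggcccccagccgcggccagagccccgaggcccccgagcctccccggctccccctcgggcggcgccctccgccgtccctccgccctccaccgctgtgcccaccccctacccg
For comparison, the tallest narrow distal interval that holds the core of the CTCF motif is printed whole (chr9:107612721-107612940, 3.6 kb from the nearest coding start site, of Sema3b, and outside exons). It has 74 capital bases in 4 stretches within 220 bp.
Narrow interval near Sema3b: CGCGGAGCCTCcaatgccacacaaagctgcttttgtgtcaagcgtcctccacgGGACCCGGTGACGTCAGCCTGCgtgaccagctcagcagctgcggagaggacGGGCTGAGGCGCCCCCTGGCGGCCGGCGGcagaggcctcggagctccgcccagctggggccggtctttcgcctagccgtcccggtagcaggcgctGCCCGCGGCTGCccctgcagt

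Broad intervals were mostly composite. Their median width was 620, 600 and 600 bp in replicates 1, 2 and 4, and the longest reached 2540, 1680 and 1260 bp. In replicate 1, 81 intervals were a single deposited peak, 213 joined 2 peaks and 25 joined 3 or more. The counts were 81, 197 and 40 in replicate 2, and 76, 218 and 25 in replicate 4. Of the 269, 279 and 270 joins between neighbouring peaks, 179, 167 and 136 were between peaks that overlap each other in the deposited list, 43, 46 and 41 between peaks that touch, and the rest spanned a gap of 1 to 50 bp. The second peak was nearly as tall as the first: the next tallest peak had a median of 83.0% ± 0.738 (SD, n = 3 libraries) of the tallest one's height. Long intervals were not always shared. Replicates 1, 2 and 4 had 1725, 1092 and 990 intervals of 500 bp or more, and 18.5%, 29.1% and 32.2% of these were members.

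The threshold was a fine one. Just below it, the interval at Etv5 measured 560, 494 and 540 bp in the 3 libraries, and that at Capn5 493, 518 and 540 bp. Just above it, 52 regions tied with a smallest width of 500 bp, among them Cfap126 (500, 500 and 500 bp), Nt5dc3 (520, 540 and 500 bp) and the region near Tmpo (500, 560 and 540 bp). The count of regions rested on the number of libraries asked to share them: sharing by only 2 libraries gave 430 regions without replicate 1, 560 without replicate 2 and 600 without replicate 4. Over the 318 regions, heights ranked much alike in the libraries (Spearman's rho of 0.96 to 0.97 across regions), while widths ranked less alike (0.50 to 0.58). These are correlations across regions of libraries that share a donor identifier, and regions are not independent replicates.

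Broad intervals lay mostly at promoters. An interval counted as promoter when it reached into the 1 kb on either side of the transcription start site (TSS) of a coding gene. This held for 66.5%, 65.7% and 65.8% of broad intervals in replicates 1, 2 and 4, and for 37.0%, 37.0% and 36.9% of narrow ones. All 3 libraries showed the excess, of 29.0 ± 0.398 percentage points (SD, n = 3; exact two-sided sign-flip permutation test, p = 0.25, the smallest p that 3 libraries can give). Of the 318 regions, 317 had member intervals in all 3 libraries, so the libraries describe nearly the same places. Their agreement and small SD in promoter share and sequence content follow from the sharing rule and are not independent support. A wider interval reaches a fixed window more easily. Judged by the midpoint alone, the shares were 62.6% ± 0.401 and 36.5% ± 0.00680, and the excess was 26.0 ± 0.407 points (exact sign-flip p = 0.25). A TSS lay inside 44.8% ± 0.543 of broad and 27.2% ± 0.157 of narrow intervals. Long intervals that were not shared by all libraries also lay mostly at promoters, at 61.0% ± 2.97. In regions, 211 were promoter and 107 distal; of the distal ones 50 lay in introns, 9 in exons and 48 between genes.

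**Figure D1:**
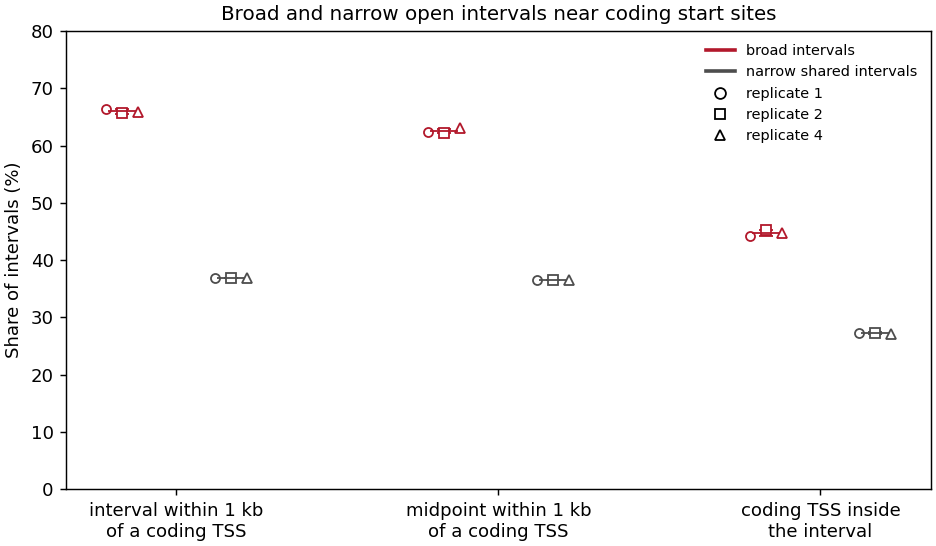
Share of broad (red) and narrow (grey) intervals in % by 3 ways of placing them near a coding TSS; open symbols are libraries, and the horizontal mark and bar are the mean and SD of 3 libraries. Broad intervals lie higher in all 3 libraries whichever way is used, at 65.7% to 66.5% against 36.9% to 37.0% for any reach into 1 kb.

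Broad did not mean tall. The median height of broad intervals was 1.99, 1.67 and 2.36 signal units in replicates 1, 2 and 4, and that of narrow ones 1.94, 1.56 and 2.24. The ratio of medians was 1.05 ± 0.0231. This near equality joined opposite differences. At promoters broad intervals were the lower ones, with medians of 2.10, 1.77 and 2.56 against 3.81, 3.16 and 4.82, a ratio of 0.548 ± 0.0155. At distal sites they were the taller ones, with 1.74, 1.41 and 2.03 against 1.49, 1.20 and 1.68, a ratio of 1.18 ± 0.0206. The tallest broad interval, at Rab8a in each library, reached 13.7, 12.6 and 18.5, while the tallest narrow one reached 54.2, 45.6 and 58.3. Height comes from the same cutting as width, so these are descriptions with no test. The sign for all intervals turned when height was the mean of an interval's peaks (ratio 0.957), when gaps were not merged (0.932) or when broad began at 600 bp (0.991).

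**Figure D2:**
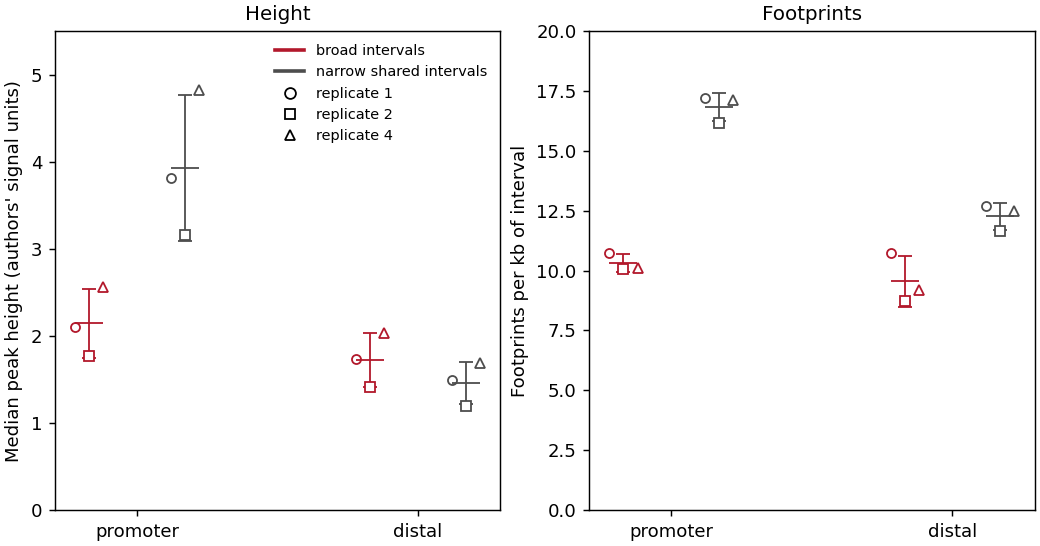
Left, median peak height in the authors' signal units; right, footprints per kb; both for promoter and distal intervals, broad in red and narrow in grey, with a symbol per library and mean ± SD. Broad promoter intervals are lower (2.15 against 3.93) and sparser in footprints (10.3 against 16.8 per kb), and broad distal ones are slightly taller (1.73 against 1.46).

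Within the broad class, wider promoter regions tended to be lower. Across the 211 promoter regions mean width and mean height had a Spearman's rho of -0.31, and across the 107 distal regions 0.07; both come from the same signal and are given as a description. The 21 promoter regions with coding start sites on both strands had a median height of 5.94, against 2.03 for the 190 with start sites on 1 strand. Of the 21, 13 were above 5. At distal sites, the 11 regions within 1 kb of the start of another gene type, mostly long non-coding RNAs, had a median height of 4.23 and the other 96 of 1.80. Promoters with start sites on both strands were not more common among broad intervals, at 8.53% ± 0.0652 of broad and 9.61% ± 0.0115 of narrow promoter intervals with midpoints near start sites of both strands.

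**Figure D3:**
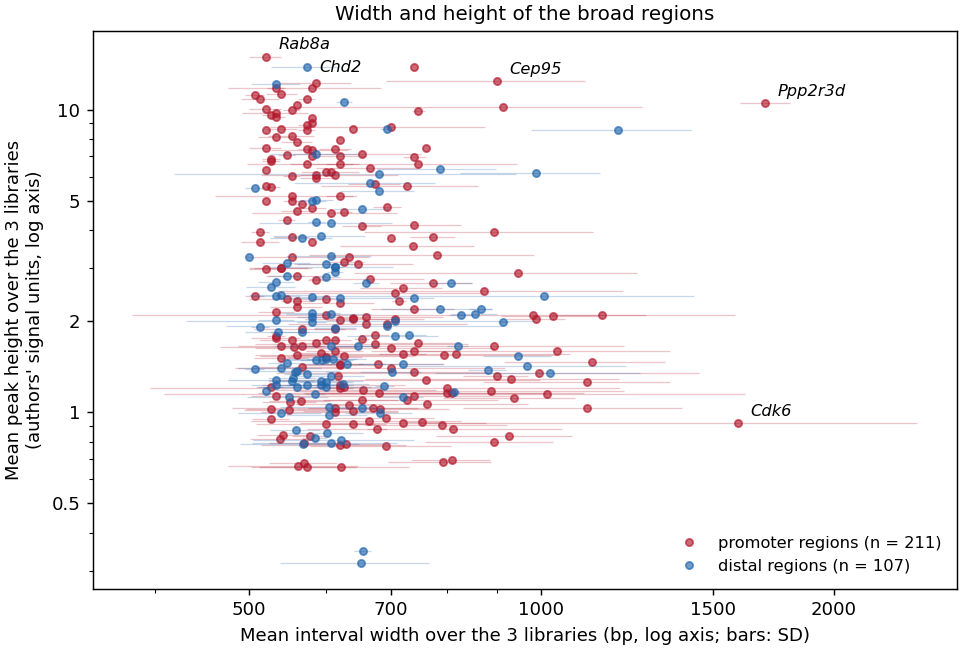
Mean width (bp, log axis) and mean height (authors' signal units, log axis) of the 318 regions, promoter in red and distal in blue, with bars for the SD of width over 3 libraries. Tall regions such as Rab8a and Chd2 sit near 500 bp, Cdk6 is wide and low, and Ppp2r3d is both wide and tall.

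The promoter excess was largest among weak intervals. The narrow intervals of each library were cut by height into 4 bins of near equal number, and broad intervals fell into the same bins at 21.5%, 26.9%, 21.7% and 29.9% from lowest to highest. In the lowest bin 64.6% ± 4.23 of broad intervals were promoter, against 12.1% ± 0.348 of narrow ones. The next bin had 60.0% ± 1.75 against 17.5% ± 0.328, and the third 53.6% ± 0.211 against 39.1% ± 0.804. In the top bin the shares were 81.5% ± 1.21 and 79.3% ± 0.136, a gap of the order of the spread of the broad class. Tall open sites were thus mostly promoters at either width, and low ones were so only when broad.

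**Figure D4:**
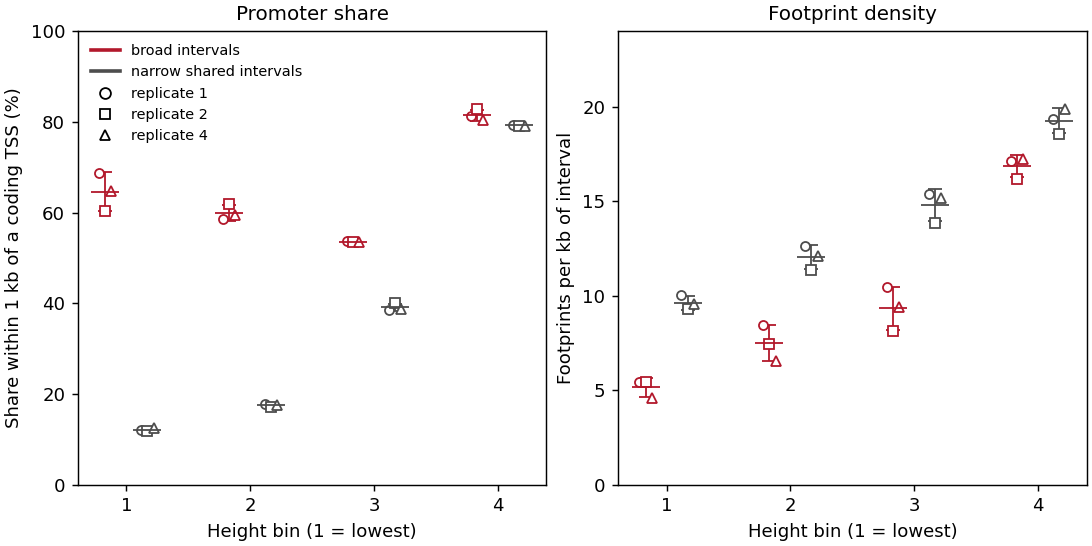
Promoter share in % (left) and footprints per kb (right) by height bin, with bin limits from the narrow intervals of each library; broad in red, narrow in grey, a symbol per library and mean ± SD. The promoter share of narrow intervals climbs from 12.1% to 79.3% with height while that of broad ones stays above 50%, and broad intervals have fewer footprints per kb in each bin.

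CpG content followed the promoter share. The observed over expected CpG ratio had a median of 0.746, 0.747 and 0.754 in broad intervals of replicates 1, 2 and 4, and of 0.438, 0.438 and 0.440 in narrow ones. The difference was 0.310 ± 0.00339 in the same direction in 3 of 3 libraries (exact two-sided sign-flip permutation test, p = 0.25, the smallest possible). As with the promoter share, this agreement follows from the sharing rule, since the libraries hold nearly the same places. Among promoter intervals alone it was 0.0121 ± 0.00247, with medians of 0.843 and 0.831. Among distal intervals the medians were close, 0.295 ± 0.00407 and 0.288 ± 0.000746. In windows of a fixed 600 bp, promoter medians were 0.841 ± 0.0108 and 0.777 ± 0.000554. Distal medians there were 0.302 ± 0.00424 and 0.271 ± 0.000195. Such windows take in more flank at narrow than at broad intervals, so they do not set width aside. A CpG-rich window, with a ratio of at least 0.6 and a GC content of at least 50%, was found at 86.7% ± 2.14 of broad and 77.3% ± 0.0891 of narrow promoter intervals. At distal sites it was found at 20.9% ± 1.21 against 5.04% ± 0.0310, so CpG-rich windows away from coding starts were a larger part of the broad class. Repeats covered similar shares, 7.71% ± 0.206 and 7.63% ± 0.0357 of bases.

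Broad intervals held more footprints each but fewer per kb. An interval had on average 6.62 ± 0.603 footprints when broad and 2.80 ± 0.148 when narrow. Per kb, broad intervals had 10.7, 9.62 and 9.81 footprints in replicates 1, 2 and 4 and narrow ones 14.4, 13.4 and 14.3, a difference of -3.97 ± 0.415. At promoters the densities were 10.3 ± 0.368 and 16.8 ± 0.579 per kb, and at distal sites 9.55 ± 1.05 and 12.3 ± 0.564. In the 150 bp centred on the midpoint of the tallest peak, broad intervals had 1.82 ± 0.0700 and narrow ones 2.34 ± 0.0726 footprints. That midpoint need not be the point of most cutting, so the window does not separate core from flanks. Inside broad intervals the tallest peak had 10.7 ± 0.534 footprints per kb and the rest 7.66 ± 0.753. Density was lower in each height bin: from 5.15 ± 0.499 against 9.63 ± 0.361 per kb in the lowest to 16.9 ± 0.585 against 19.3 ± 0.663 in the highest. Broad footprints were also shorter, 11.7 ± 0.367 against 15.1 ± 0.516 bp on average. Of them, 37.9% ± 3.29 overlapped a footprint in both other libraries, against 56.0% ± 3.91 in narrow intervals. Footprints and peaks come from the same cutting, so these are descriptions. The stricter cleavage call (FDR under 0.001) covered on average 89.7% ± 5.28 of the bases of a broad interval and 88.6% ± 5.42 of a narrow one, each interval counted equally.

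Among broad promoter intervals, those placed downstream of the TSS had the fewest footprints per kb. The tallest peak, placed by its midpoint, stood within 300 bp of a coding TSS in 63.2% ± 2.41 of broad promoter intervals and 84.3% ± 0.0143 of narrow ones. It stood over 300 bp downstream in 22.2% ± 1.40 (49, 43 and 48 intervals) against 7.69% ± 0.0131, and over 300 bp upstream in 14.6% ± 1.02 against 8.04% ± 0.00263. Downstream broad intervals had 5.43 ± 0.380 footprints per kb and a median height of 1.44 ± 0.266. Broad intervals at the TSS had 12.0 ± 0.776 per kb at a height of 2.91 ± 0.731. Narrow intervals downstream had 12.2 ± 0.487 per kb at a height of 2.04 ± 0.361. GC content differed little within the broad class, with a median of 67.7% ± 0.288 in downstream and 66.2% ± 1.08 in TSS-centred intervals. It was lower in narrow downstream intervals, at 61.2% ± 0.194. No footprint was called in 29.2% ± 5.43 of downstream broad intervals, 5.54% ± 1.87 of those at the TSS and 9.57% ± 0.790 of narrow downstream ones. Height was lower in the downstream broad intervals, and the part of height or GC content in the footprint density was not tested.

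**Figure D5:**
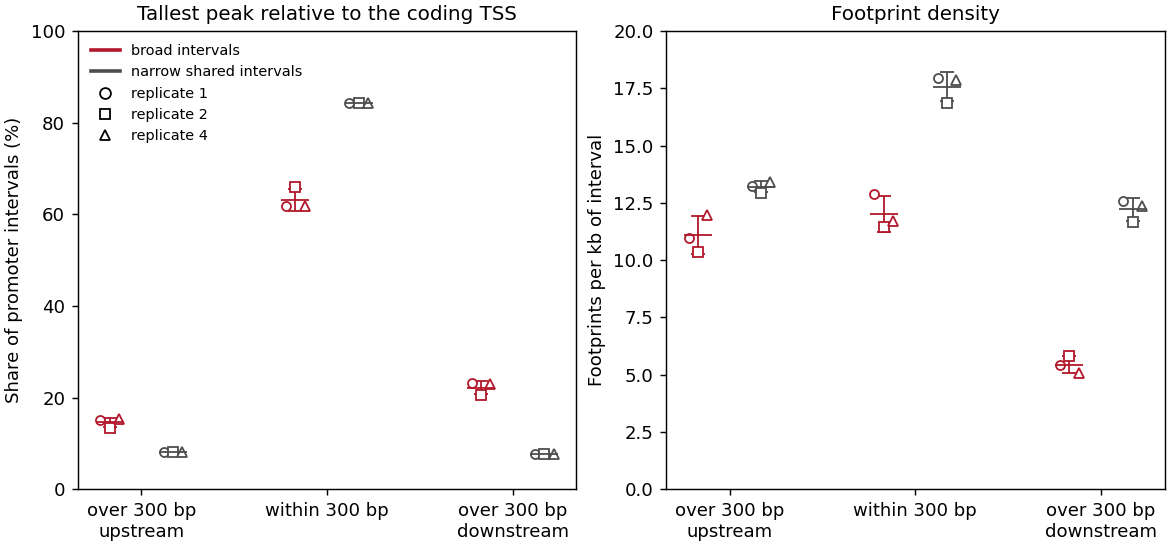
Left, share of promoter intervals in % whose tallest peak lies over 300 bp upstream, within 300 bp or over 300 bp downstream of the nearest coding TSS; right, footprints per kb of each; broad in red, narrow in grey, a symbol per library and mean ± SD. Broad intervals are placed downstream more often (22.2% against 7.69%), and those have the lowest footprint density, 5.43 per kb.

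In all, 13 regions had no footprint in any library, and all 13 were promoter regions: Rev3l, Gpx4, Purb, Aftph, Nup153, Tgif1, Slc16a1, Camk2d, Pdp1, Aff1, Ubn2, Hnrnpa2b1 and Inpp4b. The strict FDR call covered them unevenly. The Rev3l region without footprints had heights of 1.72, 1.36 and 1.82 and was covered over 100% of its bases in each library. The other broad region at Rev3l did hold footprints, as given above. Slc16a1, a monocarboxylate transporter, had heights of 0.825, 0.594 and 0.582 and was covered over 99.2%, 0% and 41.2%. Coverage was also partial at Purb (45.6%, 65.9% and 19.8%) and Inpp4b (56.4%, 57.3% and 29.8%). Gpx4, which reduces lipid peroxides, had heights of 1.74, 1.52 and 2.12 with the peak 0.096 kb upstream of its TSS. Hnrnpa2b1, an RNA-binding splicing regulator, had 1.76, 1.45 and 1.99 with the peak 0.511 kb downstream. Its divergent neighbour Cbx3, a heterochromatin protein 1 family member, had a second low region of 0.742, 0.488 and 0.743 with 0, 0 and 2 footprints. Over all promoter intervals, 2.16% ± 0.479 of narrow ones lacked a footprint, against 11.7% ± 2.71 of broad ones. At distal sites the order was the other way in each library, with 0.935%, 0.917% and 2.75% of broad and 1.80%, 3.71% and 3.73% of narrow intervals, but the broad shares rest on 1, 1 and 3 intervals.

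The CTCF motif was scarce in broad distal regions. Windows of 600 bp centred on each interval were searched on both strands for 19 patterns, and their shares are described without a test. The core of the motif of CTCF, the main insulator factor of mammals, was in 1, 2 and 1 of the 107, 109 and 109 broad distal windows of replicates 1, 2 and 4. That is 1.23% ± 0.525, against 12.3% ± 0.0163 of narrow distal windows. Within the intervals themselves, which are longer when broad, it was in 1.53% ± 0.520 and 12.0% ± 0.0208. Below the median narrow height the broad shares were 0%, 1.69% and 0% of 59, 59 and 58 windows in replicates 1, 2 and 4. The narrow share there was 11.2% ± 0.138, so the gap was also there among low intervals, on few broad windows. Of footprints widened by 5 bp on each side, 0.151% ± 0.0171 in broad and 4.68% ± 0.187 in narrow distal intervals held it. Broad footprints were shorter (11.7 against 15.1 bp over all intervals), which leaves fewer positions for a match, and the shares were not adjusted for length. The Chd2 region printed above is a broad distal region that does hold the core, at bases 274 to 285 of the printed stretch on the opposite strand (GCCCCCTGGTGG), all 12 bases in capitals. The Sema3b interval holds it at bases 115 to 126 (GCCCCCTGGCGG). At promoters the shares were alike, 5.23% ± 0.0379 and 5.38% ± 0.0221, and 2.36% of all 600 bp windows on coding TSSs held the core.

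The AP-1 pattern TGANTCA was more frequent at broad distal sites, with 29.2% ± 0.741 against 18.96% ± 0.0161 of windows; AP-1 factors mark many inducible enhancers. Windows of equal length include closed flanks of the narrow intervals. The ETS pattern GAGGAAGT, a site type of the myeloid factor PU.1, was in 14.8% ± 1.07 of broad and 9.27% ± 0.0494 of narrow distal windows. Footprints themselves held AP-1 at similar shares, 0.814% ± 0.387 and 0.768% ± 0.0452. At promoters the GC box GGGCGGGG, bound by SP and KLF factors, was in 53.7% ± 1.81 of broad and 40.8% ± 0.0440 of narrow windows, and in 29.8% of all TSS windows. Among promoter footprints the order was the other way, with the GC box in 6.01% ± 0.351 of broad and 9.06% ± 0.159 of narrow ones. Neither footprint comparison was adjusted for the shorter footprints of broad intervals. CCGGAAGT, the site of widely expressed ETS factors, was less frequent in broad promoter windows, in 4.76% ± 0.497 against 11.9% ± 0.0310, and in 6.24% of all TSS windows. TATAAA was in 4.75% ± 0.0345 of broad against 12.0% ± 0.117 of narrow promoter windows, and in 18.2% of all TSS windows. Inside the intervals, which are longer when broad, the order turned, to 5.39% ± 0.237 against 2.47% ± 0.117. The Rab8a stretch shows an NRF1 pattern (GCGCGTGCGC) at bases 15 to 24 and a CACCC box (CCACACCC) at bases 202 to 209, each wholly under footprints. In the Cdk6 stretch the GC box occurs at bases 24 to 31 and 166 to 173, with no base under footprints of all 3 libraries. Footprints of single libraries were not looked at there. Matches are descriptions of letters, not of binding.

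The tallest broad promoters, by mean rank of height within each library, belonged to genes of diverse cellular roles. Rab8a, at chr8:72160841-72161380, had heights of 13.7, 12.6 and 18.5 and 11, 8 and 12 footprints. Csnk1g2, a casein kinase 1 isoform, had 13.6, 10.4 and 17.4 at chr10:80622001-80622740, with the same width of 740 bp in each library. Mtmr4, a lipid phosphatase of endosomes, had 11.2, 9.82 and 15.7. The promoter shared by Ddx5, an RNA helicase, and Cep95 (chr11:106788361-106789400) had 10.6, 9.74 and 17.0 and 19, 11 and 17 footprints. Per1, a repressor of the circadian clock, had 10.5, 9.20 and 14.2, and Mnt, an antagonist of MYC, 11.8, 9.12 and 14.5. In all of these replicate 4 was the highest and replicate 2 the lowest, the order of the libraries' medians. The other named promoters of the 15 tallest, Vkorc1l1, Hspa9, Kmt2e, B9d2, Ppp2r3d, G3bp1, Fbrs, Nt5dc3 and Smim7, had 7.93 to 10.9 in replicates 1 and 2 and 12.6 to 14.6 in replicate 4.

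The tallest distal regions were led by CpG-rich sites with no annotated start of any gene type within 1 kb. The one whose nearest coding TSS is that of Chd2, 76.7 kb away (chr7:73618081-73618680), had 12.2, 12.1 and 17.1, a GC content of 71.0% and a CpG ratio of 0.921. A region 10.2 kb upstream of Tmpo had 9.94, 9.41 and 17.1 and a CpG ratio of 1.10. A region 35.2 kb from Mef2d, at the start of the antisense gene 1700113A16Rik, had 9.82, 8.88 and 13.1. A region at Neat1, the long non-coding RNA that builds paraspeckles (chr19:5845321-5846020), had 8.27, 6.49 and 11.2 with 12, 13 and 18 footprints. Inside Kdm6b, a demethylase of histone H3 known to be induced in activated macrophages, a region 3.004 kb downstream of the nearest coding TSS (chr11:69410281-69411380) had 5.65, 5.01 and 7.85 with 20, 18 and 14 footprints. A region 88.9 kb from Cebpb, a transcription factor of monocytes, had 5.66, 5.10 and 6.44; Cebpb is its nearest coding TSS, which does not show that it acts on that gene.

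Of the 10 widest regions most were promoter regions, and their heights ranged widely. At Cdk6 (chr5:3341161-3343700) the intervals measured 2540, 1317 and 920 bp at heights of 1.04, 0.754 and 0.965. Their footprints numbered 1, 5 and 8, so the longest interval had the fewest. Smad7, an inhibitor of TGF-beta signalling, measured 1300, 1060 and 1100 bp at 1.86, 1.84 and 2.59. Dusp6, a phosphatase of ERK kinases, had 940, 980 and 1160 bp at 2.33, 1.84 and 2.07. The midpoint of its tallest peak lay 1.45 kb upstream of the TSS. Another broad region 198 kb away, at starts of non-coding RNAs, also had Dusp6 as nearest coding gene. Zfp36l2, which promotes mRNA decay, had 1180, 670 and 1260 bp at 1.48, 1.38 and 1.92. Cdk17, Zmynd11 and Zfp652 were also wide and low, with heights of 0.754 to 1.96. Taller ones were Ppp2r3d (chr9:124422901-124424840), with 5 intervals over the libraries that sum to 1800, 1700 and 1600 bp at 8.88, 8.60 and 13.9 and 33, 30 and 28 footprints, the most of any region, and a distal region 52.4 kb from Zfp958 at 8.37, 7.01 and 10.2.

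By gene, 225 of 20720 autosomal protein-coding genes (1.09%) had a broad promoter interval in all 3 libraries. These are 2.1% of the 10726 genes with any promoter peak in all 3 libraries. A narrow shared promoter interval was held by 23.3% of genes. The share of genes with a broad promoter was 1.86% when replicate 2 was left out and 2.12% when replicate 4 was, since fewer libraries then had to share an interval. Gene lists are given as counts against these backgrounds, with no test.

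Immediate-early genes, which cells switch on within minutes of a signal, had 4 of 30 members with a broad promoter, all 30 being open in all libraries. Klf10, a TGF-beta-inducible repressor, had heights of 6.79, 5.52 and 8.998 and widths of 720, 540 and 700 bp. Zfp36, tristetraprolin, which destabilizes cytokine mRNAs, had 2.17, 1.77 and 2.49. Dusp6 and Zfp36l2 were given above. Atf3, Btg1 and Btg2 were open but not broad. Of 20 inhibitors of signalling, 2 were broad: Spred1, an inhibitor of Ras signalling, at 1.29, 1.15 and 3.44, and Socs2, an inhibitor of cytokine receptors, at 1.07, 0.869 and 0.582. Spred1 had 0, 1 and 3 footprints and Socs2 4, 4 and 0. Cytokines had 2 of 20: Tgfb1 at 3.68, 3.10 and 4.57, and the chemokine Ccl3 at 1.64, 1.35 and 1.81 with a CpG ratio of only 0.254. Splicing factors had 2 of 20 (Ddx5, Hnrnpa2b1), and chromatin genes 1 of 16 (Setd2, a histone H3 methyltransferase, at 1.29, 1.01 and 1.31). Histone genes had 2 of 66, Hist1h2ak and Hist1h2bn, which share 1 region. With so few members, these counts are descriptions only.

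Several gene groups that monocytes use had no broad promoter at all. Of 30 myeloid transcription factors, 28 were open in all libraries, 9 held a narrow shared interval and 0 were broad. Cd14, Cebpb and Csf1r were among the 10 open monocyte markers, of which 0 were broad. Of 80 cytosolic ribosomal protein genes, 77 were open, 37 held a narrow shared interval and 0 were broad. The same count of 0 held for lysosome genes (18 open of 19), proteasome subunits (36 of 38), respiratory complex I subunits (34 of 34) and stress genes (19 of 19). Against 2.1% of open genes, lists of these lengths would hold few broad promoters, and no test was run on them. The broad families by symbol were near the background: 4 of 385 Zfp genes and 4 of 358 solute carriers, among them Slc25a28, a mitochondrial iron transporter, at 8.62, 6.60 and 10.7. Of Hox genes 0 of 39 were broad, with 6 open.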

How the data were processed

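DNase-seq was analysed in 3 monocyte libraries of 1 group. Peak heights are the authors' deposited signal values per peak, called per library from a filtered alignment on mm10, per the file headers and labels; the aligner and peak caller were not given in the sources used here. Intervals of cleavage carry an FDR, a deposited p-value type column listed below 0.05; the deposited p-value of footprints is the constant 0.01 and was not used. Peaks of the longer list were merged (gap up to 50 bp) and classed as broad or narrow with Python 3.11.15, pandas 2.3.3 and numpy 2.4.6, and the interval code was tested on simulated data. Genes and start sites came from GENCODE M21 basic (release 21), sequence from RefSeq GRCm38.p6. Broad and narrow intervals were compared per library; promoter share and CpG ratio by an exact sign-flip test over 3 libraries, all else as description. The members, gene lists and motifs were chosen with earlier results of these data known. Named regions are the 15 tallest promoter, 10 tallest distal and 10 widest regions and the 10 with the most footprints, plus, per list, up to 4 broad and 3 open members; the regions without footprints and Cbx3 were added after their values were seen. Motif patterns, on both strands, were GAGGAAGT and CCGGAAGT (both ETS sites, which overlap in part), TTGCNNAA (C/EBP), TGACGTCA (CRE), GGGCGGGG (SP/KLF), CCACACCC (KLF), AAGATGGCG (YY1), GCGTGGGCG (Egr), and the short ones TGANTCA (AP-1), CACGTG (E-box), TGTGGT (RUNX), TATAAA (bound by TBP) and CCAAT (NF-Y). Those of 10 or more letters are named only: CTCF core, NRF1, IRF, NF-kappaB, SRF and ZBTB33; the SRF and NF-kappaB patterns are loose and overlap others.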

Additional observations from a re-analysis of the deposited data

How the results depend on the processing

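The promoter excess and the CpG difference kept their direction under all alternatives tried, at 23.1 to 34.0 percentage points over 13 and 0.0121 to 0.355 over 12; with 3 libraries the exact sign-flip test gives no p below 0.25. The number of regions, 318, was 550 with gaps up to 100 bp, 207 in the shorter list, 106 from 600 bp and 925 from 400 bp, and 430 to 600 when 1 library was left out. The height ratio, 1.05, fell below 1 without merging across gaps (0.932), from 600 bp (0.991), with the mean of peaks (0.957) and at promoters alone (0.548). It was 1.32 with gaps up to 100 bp, 1.21 in the shorter list, 1.09 from 400 bp, 1.18 at distal sites alone, and 1.02 to 1.09 when 1 library was left out. The footprint difference, -3.97 per kb, stayed negative: -3.22 in the shorter list, -4.64 from 600 bp, -3.48 among intervals at or above the median narrow height, -3.47 in 150 bp windows, -6.51 at promoters and -2.73 at distal sites. The share of genes, 1.09%, was 0.6998% without merging across gaps, 2.10% with gaps up to 100 bp, 0.787% in the shorter list, 0.975% with an overlap of at least 50% of the interval, 0.362% from 600 bp, 3.07% from 400 bp, 0.994% and 1.15% with promoter windows of 500 and 2000 bp, and 1.42% to 2.12% when 1 library was left out. A wider rule or fewer libraries admits more intervals by construction; otherwise the cause was not tested. The splits by promoter and distal site (except the CpG difference at promoters), the midpoint, the 600 bp window and intervals of 1 peak were chosen after seeing the data. Depth is unknown, so differences in heights between libraries cannot be scaled to reads.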

Other observations

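Non-coding genes also start at broad regions. In all 3 libraries a broad interval lay within 1 kb of the start of 20 of 2913 antisense genes, 16 of 5209 lincRNAs, 9 of 753 processed transcripts and 4 of 190 lncRNAs annotated as sharing a bidirectional promoter. Among them are Neat1, Lockd and the antisense gene Sp3os; many of these starts lie beside a coding start, so they are not independent of the counts above.

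The lowest regions stand apart from the rest. On chr4:3054821-3055900 and chr4:3059361-3060140, between genes, heights were 0.388, 0.364 and 0.297 and 0.338, 0.328 and 0.285 in replicates 1, 2 and 4, with CpG ratios of 0.0149 and 0.0388. The next lowest region, at Cbx3, had 0.742, 0.488 and 0.743.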
